A study of Mus musculus with 16 samples.

Results

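Potassium channel genes were read as 1 family across sorted fractions of mouse olfactory mucosa. Members were the array features whose gene symbol starts with Kcn followed by the letters of a subfamily, which gave 89 genes, 1 feature each, among the 19572 features tested. A member was described with its values when it lay above background on all 4 arrays of at least 1 group. Background was the 95th percentile, on each array, of the 23 background features graded by GC content, a level of 6.87 to 7.41 on the log2 signal scale. By that rule 22 of the 89 members (24.7%) were above background in a group, against 49.8% of all tested features. A further 64 members were below background on all 16 arrays.

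The 16 arrays came from C57BL/6 mice of both sexes, 7 to 12 weeks old, and every group carried the S100a5-tauGFP reporter, in which the regulatory region of S100a5 drives a fluorescent protein in olfactory sensory neurons (OSNs). The mice spent 40 h in chambers with clean air. From 26 h on they received pulses of 10 s every 20 min, either of an odor mixture (undecanal with bourgeonal) or of filtered air, called vehicle. Each of 8 pools held dissociated mucosa of 3 mice and was sorted into a fraction titled GFP− and a fraction titled GFP+, so that 4 arrays stood in each of 4 groups. The reporter reads recent activity of the neuron, and the fractions are gates on its brightness, not purified cell types.

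The titles and the cell type field of the labels state opposite GFP status on all 16 arrays. The titles were kept as names, and every fraction difference here has the titled GFP+ value subtracted from the titled GFP− value. S100a5, the gene behind the reporter, checks the names: its log2 signal was 16.37 ± 0.09 in the vehicle fraction titled GFP− against 15.38 ± 0.13 in the one titled GFP+, and 16.65 ± 0.29 against 15.34 ± 0.48 in the odor pools (SD, n = 4). In each of the 8 pools the titled GFP− array was the higher one, the opposite of what the titles say.

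Potassium channels let potassium leave the cell down its gradient, which sets the resting potential and ends each action potential. Voltage-gated (Kv) subunits open on depolarization, SK and BK channels respond to calcium, inward rectifiers and K2P channels hold the resting potential, and auxiliary subunits change gating, block or traffic of the pores. In an OSN, odor binding raises cAMP, cyclic nucleotide-gated and chloride channels depolarize the cilia, and sodium and potassium channels of the soma and axon turn this into spikes.

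The arrays were alike within groups, with correlations of 0.979 to 0.995 between replicates over all tested features. All 8 markers of mature OSNs (Omp and others) were above background in every group, and their summed log2 signal was 20.89 to 20.96 and 20.80 to 20.82 in the vehicle fractions titled GFP− and titled GFP+, and 20.78 to 20.92 and 20.69 to 20.81 in the odor fractions. The brightest, Stoml3, weighs most in that sum and differed by 0.0 in vehicle and −0.03 in odor pools. The median difference of the 8 was 0.16 in vehicle and 0.19 in odor pools. Ano2 was called higher in the fraction titled GFP− in both (0.39 and 0.41), and Adcy3 in odor pools (0.30). Markers of several other cell types were lower in the fraction titled GFP−. Of 8 neutrophil markers, all 8 were called lower in each comparison, with sums of 8.52 to 9.68 over both titled GFP− groups and 18.25 to 19.52 over both titled GFP+ groups. The same held for all 8 markers of microvillar cells and ionocytes, all 10 of other leukocytes, 5 measured of cycling cells and 3 measured of erythroid cells. Of 8 immature OSN markers, 5 were called lower in each comparison. In sorted bulk RNA, fewer cells of a type and less RNA per cell cannot be told apart. The part of these markers' cells in the members' differences was not tested.

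The question put to each member was whether its signal differed between the fractions, in vehicle and in odor pools. In vehicle pools, 12 of 89 members were called higher in the fraction titled GFP− and 7 lower at an adjusted p under 0.05. The background over all tested features was 7.05% higher and 9.82% lower, or 16.9% in either direction, and the members' share in either direction was 21.3%. In odor pools 13 members were called higher and 7 lower, a share of 22.5%, where the background was 12.2% higher, 9.98% lower and 22.2% in either direction. At an unadjusted p under 0.05 there were 26 and 27 members, where the background was 30.6% and 35.4%. The family as a whole thus lay near the background in the share called. The median difference of members was 0.17 in vehicle and 0.16 in odor pools, against 0.13 and 0.14 over all tested features. With features below background in both groups set to no difference, both sets had a median of 0.0. For members that value was fixed in advance, because 64 of the 89 were so set, and it allows no comparison. Among features above background in a group, the median was 0.41 and 0.36 for the 22 members, against 0.12 and 0.16 for all 9744. The comparisons share no arrays, but the fit gave each feature a spread estimated over all groups together, so the calls are not independent. Members called in both were 13 (14.6%), against 12.5% of all tested features. A further 6 (6.74%) were called in vehicle pools alone and 7 (7.87%) in odor pools alone, against 4.33% and 9.62%.

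Those counts moved with the pools and the scale, and the calls over all features moved with them. Leaving out vehicle replicate 1, 2, 3 or 4 gave 5, 7, 7 and 6 members called higher in vehicle pools, with 3.48%, 4.37%, 3.93% and 4.83% of all features. Replicates 1 and 3 each gave 4 called lower, with 7.44% and 7.94% of features. Leaving out odor replicate 1, 2 or 4 gave 7, 6 and 7 members called higher in odor pools, with 6.33%, 8.19% and 9.93% of features, and replicates 1, 2 and 3 gave 4, 3 and 3 called lower, with 7.41%, 8.43% and 7.9%.

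Centring each array on the median of tested features gave 58 members higher and 5 lower in vehicle pools, where 63.6% and 7.81% of all features were called, and 49 and 6 in odor pools, where 49.3% and 7.84% were. Centring on the median of olfactory receptor genes gave 2 and 7 in vehicle pools (1.75% and 9.2% of features) and 1 and 9 in odor pools (1.74% and 12.5%). Quantile normalization gave 19 and 6 (13.5% and 9.52%), and 15 and 8 (15% and 9.99%). The centrings moved the median difference of all features from 0.13 to 0.54 and −0.14 in vehicle pools and from 0.14 to 0.44 and −0.33 in odor pools.

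The 22 members above background fell into most classes of channel. They were 4 of 15 Kv1 to Kv4 pore genes, 1 of 9 modifier Kv genes, 1 of 3 Kv7 genes, 4 of 8 genes of the EAG, ERG and ELK families, 3 of 7 genes with Kcnn, Kcnt or Kcnu symbols (the class named calcium- and sodium-activated), 1 of 15 inward rectifiers, 2 of 14 K2P genes and 5 of 16 auxiliary genes. The last was Kcnrg, which is named for the family but encodes a regulator that is not a channel subunit. Of these 22, 17 were above background on all 16 arrays.

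**Figure D1:**
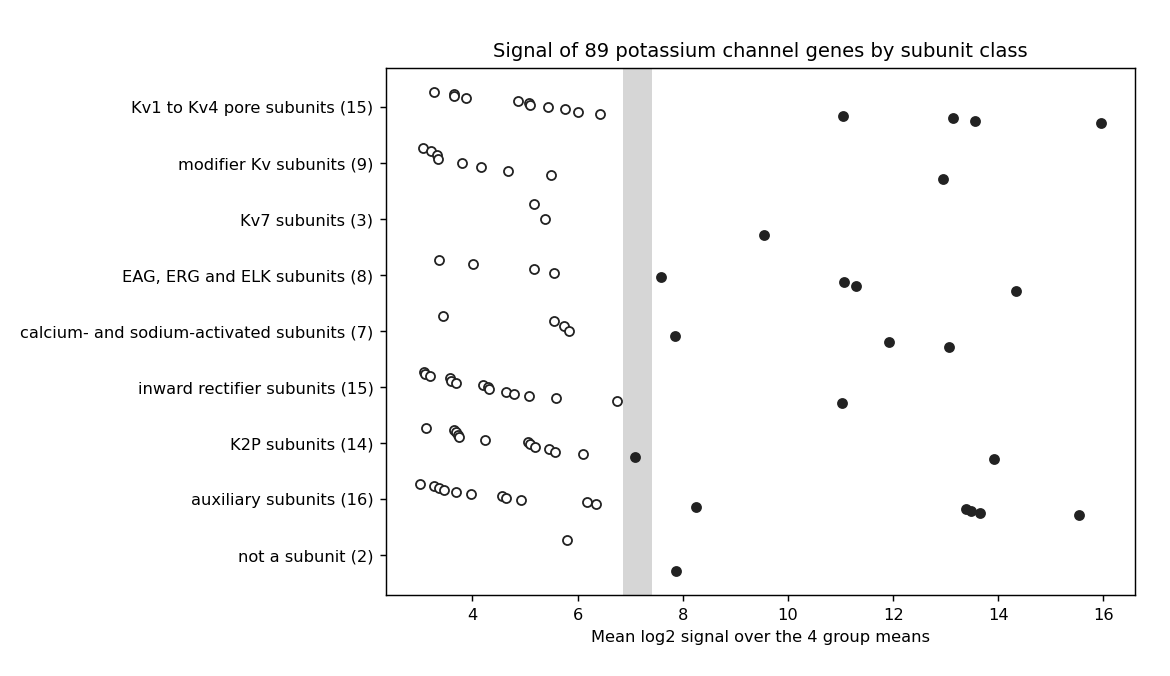
Mean log2 signal over the 16 arrays (horizontal axis) of each of the 89 potassium channel genes, 1 point per gene, in rows by class; filled points are the 22 members above background on all arrays of a group, open points the other 67, and the grey band is the background range over arrays, 6.87 to 7.41. Most inward rectifier, K2P and Kv1 to Kv4 genes lie left of the band; levels of different genes rest on different probes and are not ordered against each other.

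The start regions of the members were looked at for letters bound by factors known in this tissue. RefSeq windows of the 250 bases before the start (GRCm38.p6) were at hand for 18 of the 22 members, 24 windows in all. The motifs, read on both strands, were TGACG, the core of the cAMP response element bound by CREB-type factors, its full form TGACGTCA, which contains the core, and CCCNNGGG, the core bound by Olf/EBF factors of OSNs. TGACG was in a window of 5 members (Kcnab2, Kcna6, Kcnn1, Kcnc4 and Kcnrg), or 5 of the 24 windows, where 17.8% of all 32851 RefSeq windows hold it. The full form was in none of the 18 members and in 1.55% of all windows. CCCNNGGG was in 4 members (Kcnc4, Kcnip4, Kcnmb4 and Kcnh4), or 4 of the 24 windows, and in 11.8% of all windows. A match is a description of letters, not of a bound site.

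The 100-base stretches shown are those of Kcnmb3, the member above background with the largest positive difference between fractions, of Kcnk1, which ran the other way, and of the 4 members called higher that hold the core. They are written 5′ to 3′ on the gene's strand, with the core in capitals, as TGACG in Kcnrg and as CGTCA, its reverse complement, in the others. Kcnmb3 is shown from chr3:32491970-32492069 (minus strand) and Kcnk1 from chr8:125995002-125995101 (plus strand), both the 100 bases before the start. Kcna6 is from chr6:126740675-126740774 (minus strand, the 100 bases before the start), Kcnn1 from chr8:70863339-70863438 (minus strand, bases 180 to 81 before it) and Kcnab2 from chr4:152477675-152477774 (minus strand, bases 225 to 126 before it). Kcnrg is from chr14:61607313-61607412 (plus strand, bases 144 to 45 before it).
Kcnmb3: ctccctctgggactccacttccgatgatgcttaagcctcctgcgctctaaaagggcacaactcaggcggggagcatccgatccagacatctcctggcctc
Kcnk1: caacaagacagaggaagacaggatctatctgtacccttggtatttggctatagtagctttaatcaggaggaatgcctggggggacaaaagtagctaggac
Kcna6: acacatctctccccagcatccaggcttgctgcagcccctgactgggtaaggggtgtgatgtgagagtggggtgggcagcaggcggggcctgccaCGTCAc
Kcnn1: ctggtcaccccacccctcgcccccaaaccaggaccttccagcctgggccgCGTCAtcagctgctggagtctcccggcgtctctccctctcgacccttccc
Kcnab2: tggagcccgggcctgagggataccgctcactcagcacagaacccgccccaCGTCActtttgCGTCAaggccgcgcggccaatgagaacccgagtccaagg
Kcnrg: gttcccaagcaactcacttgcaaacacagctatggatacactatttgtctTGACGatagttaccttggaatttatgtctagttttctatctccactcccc

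The core is 6 bases before the start in Kcna6, 130 in Kcnn1, 94 in Kcnrg, and 175 and 164 in Kcnab2, by its first base. Neither Kcnmb3 nor Kcnk1 holds it in the window read.

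Kcnmb3 encodes an auxiliary β subunit of the BK channel, a large-conductance channel opened jointly by calcium and voltage. Its log2 signal was 14.28, 14.26, 14.14 and 14.06 in the vehicle fraction titled GFP− (replicates 1 to 4) and 12.84, 12.94, 12.85 and 12.77 in the one titled GFP+. In the odor pools it was 14.50, 14.42, 14.15 and 14.63 against 13.02, 13.10, 13.25 and 13.34. The 8 arrays titled GFP− all lay above the 8 titled GFP+, by 1.29 to 1.44 within vehicle pools and 0.90 to 1.48 within odor pools. The difference was 1.34 ± 0.12 (SE), 2.53-fold, in vehicle pools (adjusted p = 7.8e-07, limma) and 1.25 ± 0.12, 2.38-fold, in odor pools (adjusted p = 1.7e-06). Among members above background it had the largest mean of both differences, and it was called in both comparisons under every leave-one-out fit and all 6 other settings run. Receptor centring lowered it most, to 1.07 (adjusted p = 0.005) and 0.78 (adjusted p = 0.0399).

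Kcnn2 encodes an SK subunit, a small-conductance channel gated by calcium alone that slows firing after spikes. Its log2 signal in vehicle pools was 13.46, 13.51, 13.72 and 13.62 in the fraction titled GFP− and 12.34, 12.85, 12.58 and 12.53 in the one titled GFP+. In odor pools the values were 13.66, 13.52, 13.19 and 13.58 against 12.64, 12.72, 12.37 and 12.68. Here too the 8 and 8 arrays did not overlap. The gene was higher by 1.00 ± 0.14 in vehicle pools (2.00-fold, adjusted p = 6.8e-05) and by 0.88 ± 0.14 in odor pools (1.84-fold, adjusted p = 2.6e-04). Centring on the receptor median ended both calls, at 0.73 (adjusted p = 0.0972) and 0.41 (adjusted p = 0.328).

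Kcnn1, an SK subunit gene with TGACG in its start region above, was called in both comparisons. Its values were 12.50, 12.16, 12.27 and 12.08 against 11.69, 11.72, 12.02 and 11.65 in vehicle pools, and 12.10, 12.00, 11.84 and 12.14 against 11.70, 11.50, 11.67 and 11.65 in odor pools. Groups within a treatment did not overlap, and the difference was positive in all 8 pools, at 0.48 ± 0.13 (adjusted p = 0.0146) and 0.39 ± 0.13 (adjusted p = 0.0394). The vehicle call ended without vehicle replicate 1 or 2, and the odor call without vehicle replicate 2 or any odor replicate (0.35 to 0.46, adjusted p up to 0.138) or with quantile normalization (0.31, adjusted p = 0.0986). Centring on the receptor median gave 0.21 in vehicle pools and −0.08 in odor pools, without a call.

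Other genes of large-conductance channels above background did not pass the test on the values as deposited. Kcnu1, a pore gene of the large-conductance kind known from sperm, differed by 0.48 ± 0.23 and 0.62 ± 0.23 (adjusted p = 0.168 and 0.0634), with values of 7.04 to 8.48 that lay near background. It passed with quantile normalization (0.73 and 0.81, adjusted p = 0.0339 and 0.0196), and in odor pools when only features above background were tested (adjusted p = 0.0479). The other BK β subunit genes were Kcnmb2, which gives fast inactivation, and Kcnmb4, the neuronal form. Kcnmb2 lay at 12.94 to 13.76 and differed by 0.20 ± 0.13 and 0.37 ± 0.13 (adjusted p = 0.3 and 0.0507); the odor difference passed when only features above background were tested (adjusted p = 0.0269) and with a trend and robust variance (adjusted p = 0.0273). Kcnmb4 lay at 6.99 to 8.59, with 1 odor array titled GFP+ below background, and differed by −0.11 and 0.27 (adjusted p = 0.816 and 0.499). All 4 BK γ subunit genes in the list of partners were below background on all 16 arrays.

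**Figure D2:**
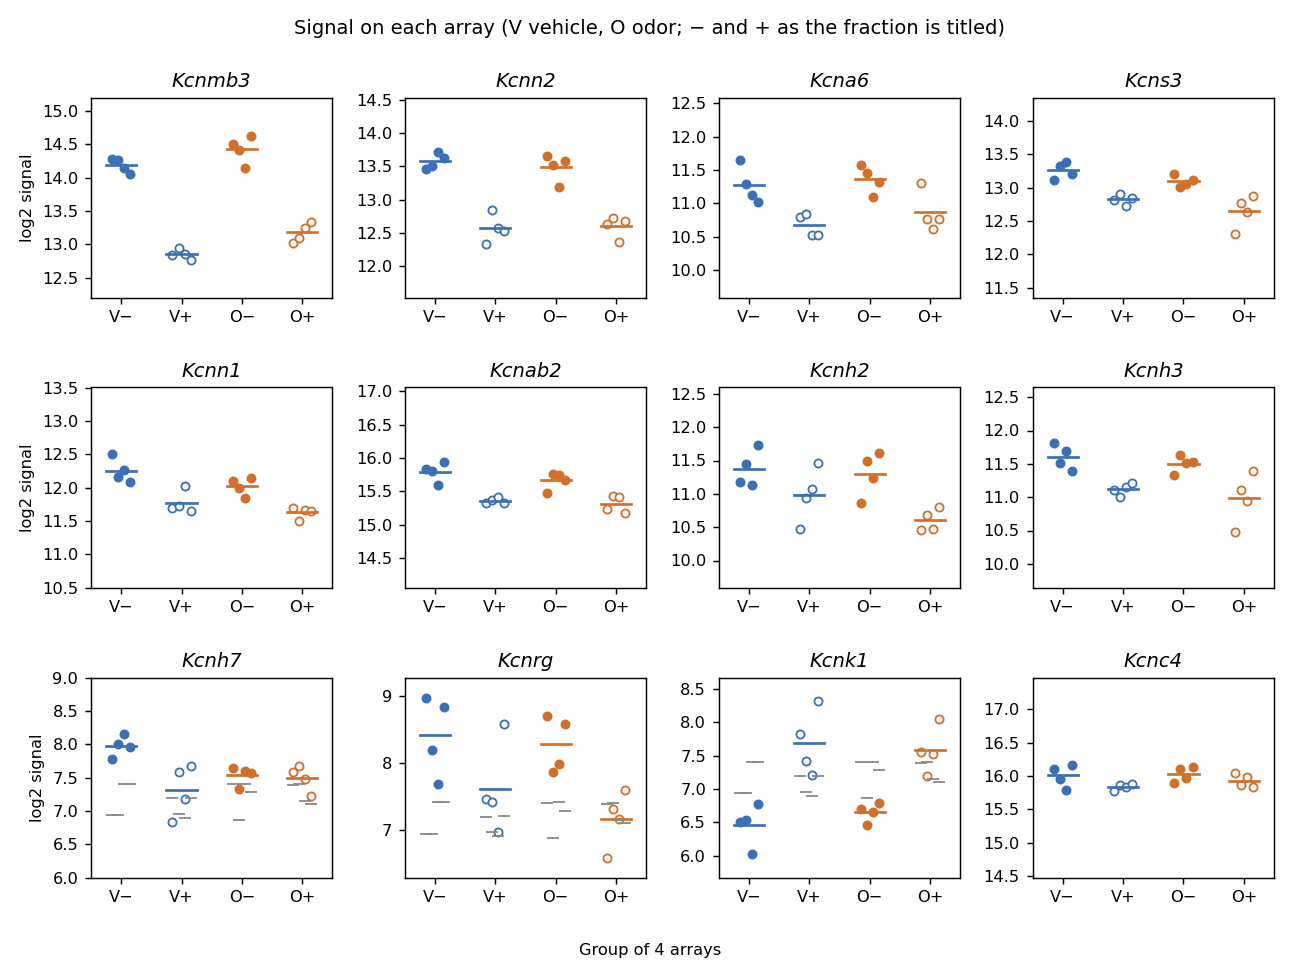
Log2 signal (vertical axes, each panel with its own range) on each array of the members given array by array and of Kcnc4. Filled circles are arrays titled GFP−, open circles titled GFP+, blue vehicle and orange odor. A bar marks the mean of the 4 arrays of a group and grey dashes each array's background. Kcnmb3, Kcnn2, Kcns3 and Kcnab2 show no overlap between the fractions over both treatments. Kcnh7, Kcna6 and Kcnh3 show none in vehicle pools but overlap in odor pools. Kcnk1 runs the other way, also without overlap, with its filled points below the dashes.

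Among Kv pore genes, Kcna6 (Kv1.6, a low-threshold delayed rectifier) was called in vehicle pools. Its log2 signal was 11.65, 11.29, 11.13 and 11.02 against 10.79, 10.84, 10.53 and 10.52 in vehicle pools and 11.57, 11.46, 11.09 and 11.32 against 11.31, 10.77, 10.61 and 10.77 in odor pools. All 8 pools had the higher value in the fraction titled GFP−, by 0.60 ± 0.18 in vehicle pools (adjusted p = 0.0254) and 0.50 ± 0.18 in odor pools (adjusted p = 0.0532). With the pool as a replicate block the odor difference passed too (adjusted p = 0.0162). The vehicle call ended when any vehicle replicate was left out (0.52 to 0.65, adjusted p up to 0.111) and under receptor centring (0.34, adjusted p = 0.805).

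Kcna6 stands in a row with Kcna1 and Kcna5 on chromosome 6, by the order of genes in RefSeq. Kcna5 (Kv1.5) lay at 13.04 to 13.89 and differed by 0.37 ± 0.15 and 0.20 (adjusted p = 0.106 and 0.371); with the replicate block the vehicle difference passed (adjusted p = 0.0488). Kcna1 (Kv1.1), between them, was below background on all 16 arrays, although its deposited values were called higher in both comparisons. In the Kv1 row on chromosome 3, Kcna2 (Kv1.2) was above background on all 16 arrays at 12.73 to 13.56, while Kcna3 and Kcna10 beside it were below it on all. Kcna2 differed by 0.17 and 0.29 (adjusted p = 0.45 and 0.151).

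Kcnc4 (Kv3.4), a fast-inactivating pore, lay at 15.78 to 16.17 on all arrays. It differed by 0.17 and 0.09 (adjusted p = 0.331 and 0.61), and its 95% intervals ran from −0.07 to 0.41 and from −0.15 to 0.33. Kcnq1, the slow cardiac and epithelial Kv7 pore, lay at 8.74 to 10.09 and differed by 0.43 and 0.39 (adjusted p = 0.178 and 0.201). The noncoding transcript from its locus, Kcnq1ot1, was below background on all 16 arrays.

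Kcns3 (Kv9.3) makes no channel alone and modifies Kv2 pores. Its values were 13.12, 13.32, 13.39 and 13.20 against 12.81, 12.90, 12.73 and 12.85 in vehicle pools, and 13.21, 13.01, 13.06 and 13.11 against 12.31, 12.77, 12.63 and 12.87 in odor pools. The 8 arrays titled GFP− all lay above the 8 titled GFP+. The difference was 0.43 ± 0.13 (adjusted p = 0.0267) in vehicle and 0.45 ± 0.13 (adjusted p = 0.0191) in odor pools. With the replicate block the vehicle adjusted p was 0.0551, and the call also ended without any 1 vehicle replicate (adjusted p up to 0.162); the odor call ended without odor replicate 1 or 3 (adjusted p up to 0.13). Receptor centring left 0.17 and −0.02. Of the Kv2 genes, Kcnb2 was below background on all arrays, while Amigo1, a Kv2 partner, was above it on all 16.

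Kcnab2 encodes the cytoplasmic β2 subunit that binds Kv1 pores and aids their transport. It gave 15.84, 15.81, 15.59 and 15.95 against 15.32, 15.37, 15.42 and 15.32 in vehicle pools, and 15.48, 15.76, 15.75 and 15.67 against 15.23, 15.44, 15.42 and 15.17 in odor pools. The fractions did not overlap over the 8 and 8 arrays. The differences were 0.44 ± 0.12 (adjusted p = 0.0158) and 0.35 ± 0.12 (adjusted p = 0.0429). The vehicle call ended without vehicle replicate 1, 2 or 4 (adjusted p up to 0.0955). The odor call ended without any odor replicate or vehicle replicate 1, 2 or 4 (adjusted p up to 0.152), with the replicate block (adjusted p = 0.0545) and with quantile normalization (0.25, adjusted p = 0.114); receptor centring gave 0.17 and −0.12. Kcnip4, a calcium-binding partner of Kv4 pores, lay at 13.01 to 13.92 and differed by 0.20 and 0.02 (adjusted p = 0.516 and 0.961). The Kv4 pore genes themselves, Kcnd1, Kcnd2 and Kcnd3, and the Kv4 partners Dpp6 and Dpp10 were below background on all 16 arrays.

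The ERG and ELK genes, whose channels carry slow currents at subthreshold voltages, were above background for 4 of the 8 members of the class, and the class had 1 member called higher in vehicle and 2 in odor pools, beside the background of 7.05% and 12.2% given above. Kcnh2 (ERG1) was at 11.18, 11.45, 11.13 and 11.73 against 10.47, 10.94, 11.07 and 11.46 in vehicle pools, which overlapped, and at 10.87, 11.50, 11.24 and 11.61 against 10.46, 10.69, 10.48 and 10.81 in odor pools, which did not. It differed by 0.39 ± 0.21 (adjusted p = 0.22) and 0.70 ± 0.21 (adjusted p = 0.0249), and was higher in all 8 pools. The interaction, which tests whether the difference changed with treatment, was 0.31 ± 0.29 (adjusted p = 1.0). The odor call ended without odor replicate 2, 3 or 4 (0.66 to 0.79, adjusted p up to 0.0904) and under receptor centring (0.23).

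Kcnh3 (ELK2) was at 11.81, 11.52, 11.69 and 11.40 against 11.11, 11.01, 11.16 and 11.21 in vehicle pools, and at 11.33, 11.64, 11.51 and 11.53 against 10.48, 11.11, 10.95 and 11.39 in odor pools. It was higher in all 8 pools, and passed in odor pools (0.52 ± 0.16, adjusted p = 0.032) but not in vehicle pools (0.48 ± 0.16, adjusted p = 0.0553), where the replicate block gave 0.0384 and 3 further settings gave 0.0407 to 0.0444. The odor call ended without odor replicate 1, 2 or 3 (0.41 to 0.65, adjusted p up to 0.107), and receptor centring gave 0.05. Kcnh4 (ELK1) lay at 13.91 to 14.82 and differed by 0.21 and 0.10 (adjusted p = 0.354 and 0.66).

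Kcnh7 (ERG3) lay near background and, of the 22 members above background, had the difference that changed most between treatments. It was at 7.78, 8.0, 8.16 and 7.96 against 6.84, 7.58, 7.18 and 7.67 in vehicle pools, with no overlap, and at 7.65, 7.33, 7.6 and 7.57 against 7.59, 7.67, 7.48 and 7.22 in odor pools, with overlap. The difference was 0.66 ± 0.17 (adjusted p = 0.0136) in vehicle and 0.05 ± 0.17 (adjusted p = 0.878) in odor pools. Its interaction of −0.61 ± 0.24 had an unadjusted p of 0.023 and an adjusted p of 1.0, so the change did not pass. The vehicle call ended without vehicle replicate 3 (adjusted p = 0.108) and under receptor centring (0.39, adjusted p = 0.627).

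Kcnrg, the regulator that is no subunit, was called in odor pools. It was at 8.98, 8.19, 7.69 and 8.84 against 7.46, 7.42, 6.97 and 8.58 in vehicle pools and at 8.70, 7.86, 7.98 and 8.58 against 6.58, 7.31, 7.16 and 7.6 in odor pools. It was higher in all 8 pools, by 0.26 to 2.12, and its spread within groups was wide (SD 0.42 to 0.69). The differences were 0.82 ± 0.35 (adjusted p = 0.121; 0.0379 with quantile normalization) and 1.12 ± 0.35 (adjusted p = 0.0293). The odor call ended without odor replicate 1, 3 or 4 (0.78 to 1.31, adjusted p up to 0.207) and under receptor centring (0.65, adjusted p = 0.185).

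**Figure D3:**
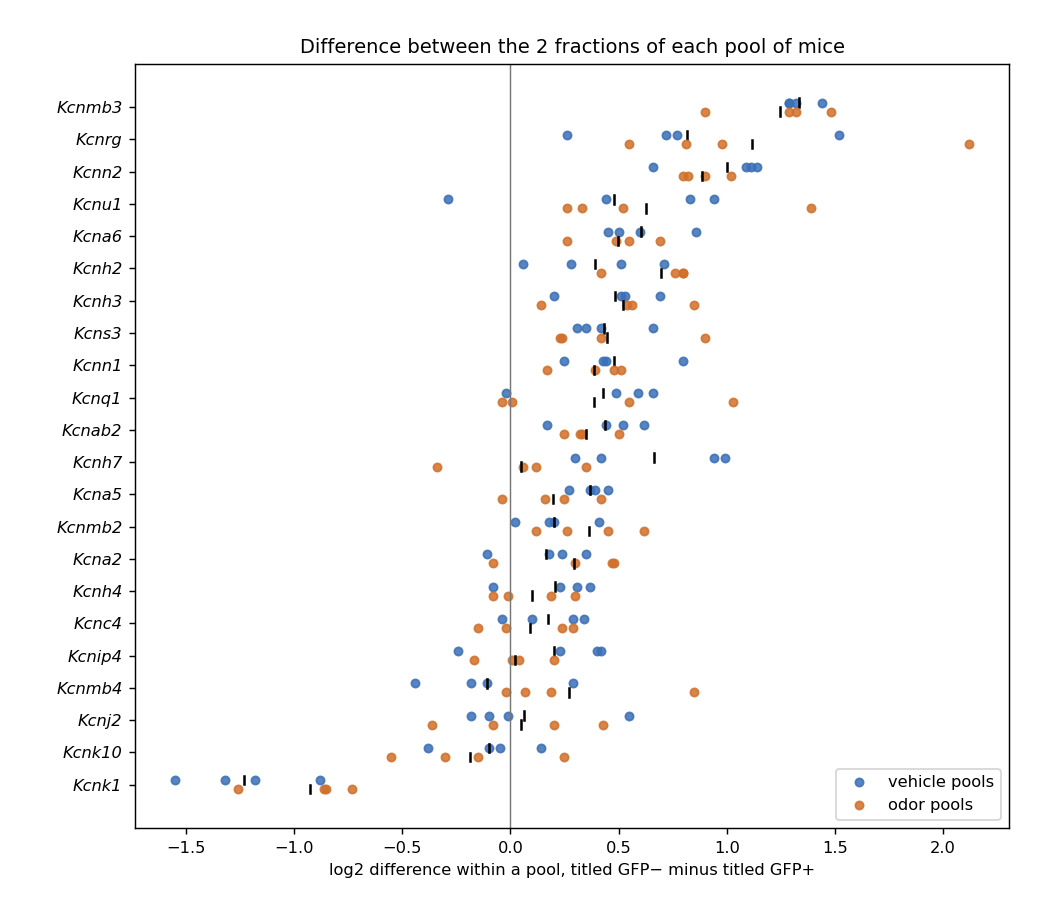
Difference in log2 signal, titled GFP− minus titled GFP+, within each of the 8 pools (horizontal axis) for the 22 members above background, blue vehicle and orange odor, with a tick at the mean of the 4 pools of a treatment. For 10 members all 8 pools lie right of 0, for Kcnk1 all 8 lie left of it, and for the other 11 the signs are mixed. Over all 89 members, all 8 pools lie right of 0 for 14 and left of it for 8. The shares over all tested features, above background or not, are 15.9% and 11.5%. They compare with the 89 members, not with the 22, and no share over features above background was computed. Kcnk1 is among the 22 only through a group titled GFP+.

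Kcnk1 ran the other way, with lower values in the fraction titled GFP−. It encodes TWIK1, a K2P leak channel that is also expressed in many epithelia. Its log2 signal was 6.50, 6.54, 6.02 and 6.77 against 7.82, 7.42, 7.21 and 8.32 in vehicle pools, and 6.70, 6.46, 6.66 and 6.79 against 7.55, 7.19, 7.52 and 8.05 in odor pools. All 8 arrays titled GFP− were below background, and 7 of the 8 titled GFP+ were above it. It entered the 22 only through the vehicle fraction titled GFP+, the group where it was high, so the vehicle difference of −1.23 ± 0.23 is a description and its call is no support. In odor pools, which did not admit it, the difference was −0.93 ± 0.23 (adjusted p = 0.0091), and it was called in every leave-one-out fit and all 6 other settings run, at −0.62 with tested-median centring and −1.39 with receptor centring. Because the dimmer group has only a bound, the fraction titled GFP+ was at least 1.43-fold higher in vehicle and at least 1.26-fold higher in odor pools.

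Markers of some other cell types were lower in the fraction titled GFP− as Kcnk1 was, while fewer of those of other types were. All 8 markers of microvillar cells and ionocytes were below background on every array titled GFP−, with a summed log2 signal of 8.48 to 8.93 there and 11.44 to 12.25 on the arrays titled GFP+. Of 7 sustentacular markers, 4 were called lower in vehicle and 5 in odor pools, with sums of 11.43 to 13.83 against 13.85 to 15.06. The neutrophil sums given above moved further. Fewer markers were called lower elsewhere: 1 of 5 of Bowman gland and 2 of 8 of endothelial and mural cells in each comparison. Of 5 measured for ensheathing glia it was 1 in vehicle and 2 in odor pools, and of 6 measured for basal and progenitor cells 3 in each. The part of any of these cells in the Kcnk1 difference was not tested.

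The other members above background that set the resting potential did not pass the test. Kcnk10 (TREK2), a mechanosensitive K2P channel, lay at 13.70 to 14.32 and differed by −0.10 and −0.19 (adjusted p = 0.664 and 0.366), with 95% intervals of −0.40 to 0.20 and −0.48 to 0.11. Kcnj2 (Kir2.1), a strong inward rectifier, lay at 10.40 to 11.61 and differed by 0.07 and 0.05 (adjusted p = 0.869 and 0.908), with intervals of −0.43 to 0.56 and −0.45 to 0.54. For both, centring on another reference turned a sign.

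The sorted groups were also read for overlap over all 89 members. Both treatments together, the 8 arrays of each fraction did not overlap for 6 members higher and 4 lower, and also for Kcnn4, which was lower. Its highest value titled GFP− and its lowest titled GFP+ were both 5.54 after rounding, so the count of 4 leaves it out. The background, counted before rounding, was 3.71% and 7.46% of features. The sign was the same in all 8 pools for 14 members higher and 8 lower, where the background was 15.9% and 11.5%. The groups did not overlap in vehicle pools for 16 members higher and 7 lower (background 12.3% and 11.1%), and in odor pools for 12 and 5 (background 14.2% and 10.3%).

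Among the 67 members that were not above background in a group, values ran from 2.56 to 7.61. Calls in at least 1 comparison were made on 15 of them (22.4%), against 20.4% of all features not above background in a group. In both comparisons 7 were called (10.4%, against 7.98%), namely Kcna1 and Kcnd1 higher and Kcnip3, Kcnj3, Kcnk5, Kcnk6 and Kcnn4 lower in the fraction titled GFP−. The first 2 and Kcnj3, Kcnk5 and Kcnk6 were below background on all 16 arrays, so they have no fold here. Kcnip3 (a Kv4 partner) and Kcnn4 (the intermediate-conductance calcium-activated channel of blood and epithelial cells) were above background on 2 arrays each, all titled GFP+, and gave no positive bound. Kcnn4 differed by −1.35 and −1.36 (adjusted p = 0.0254 and 0.0209) on values of 4.69 to 7.61. The members nearest the rule were Kcnk1 (7 arrays above background) and Kcnrg (14 arrays) inside it, and Kcnn4, Kcnip3 and Kcnj5 (2 arrays each) outside it.

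Odor against vehicle was compared within each fraction. No member and no feature of the 19572 passed (background 0.0%) in the fraction titled GFP−, in the fraction titled GFP+ or in the interaction. At an unadjusted p under 0.05, limma gave 8, 9 and 4 members, where 4.11%, 10.3% and 3.78% of all features passed. Over the 22 members above background, the odor difference ran from −0.44 to 0.24 in the fraction titled GFP− and from −0.45 to 0.33 in the one titled GFP+, with 95% intervals reaching from −0.88 to 0.68 and from −1.18 to 0.76.

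Of the 8, 9 and 4 members at an unadjusted p under 0.05 in limma, 1 in each comparison was above background in a group. The 3 smallest p-values in each among the 22 members above background are given as not passing; some members below that level had smaller ones. In the fraction titled GFP−, Kcnh7 had an odor difference of −0.44 ± 0.17 (unadjusted p = 0.0224, adjusted p = 0.999), and its odor and vehicle arrays did not overlap, as for 1.46% of features in that direction and 1.51% in the other. Kcnmb3 at 0.24 ± 0.12 and Kcnn1 at −0.23 ± 0.13 came next (unadjusted p = 0.0737 and 0.0879). In the fraction titled GFP+, Kcnmb3 had an odor difference of 0.33 ± 0.12 (unadjusted p = 0.0184, adjusted p = 0.396) and Kcnh4 one of 0.30 ± 0.14 (unadjusted p = 0.0568, adjusted p = 0.498). The odor arrays of both lay above the vehicle arrays, as for 2.23% of features, with 3.05% in the other direction. Kcnh2 was at −0.37 ± 0.21 (unadjusted p = 0.0915, adjusted p = 0.564). In the interaction, Kcnmb4 (0.38 ± 0.38, unadjusted p = 0.335) stood beside Kcnh7 and Kcnh2.

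**Figure D4:**
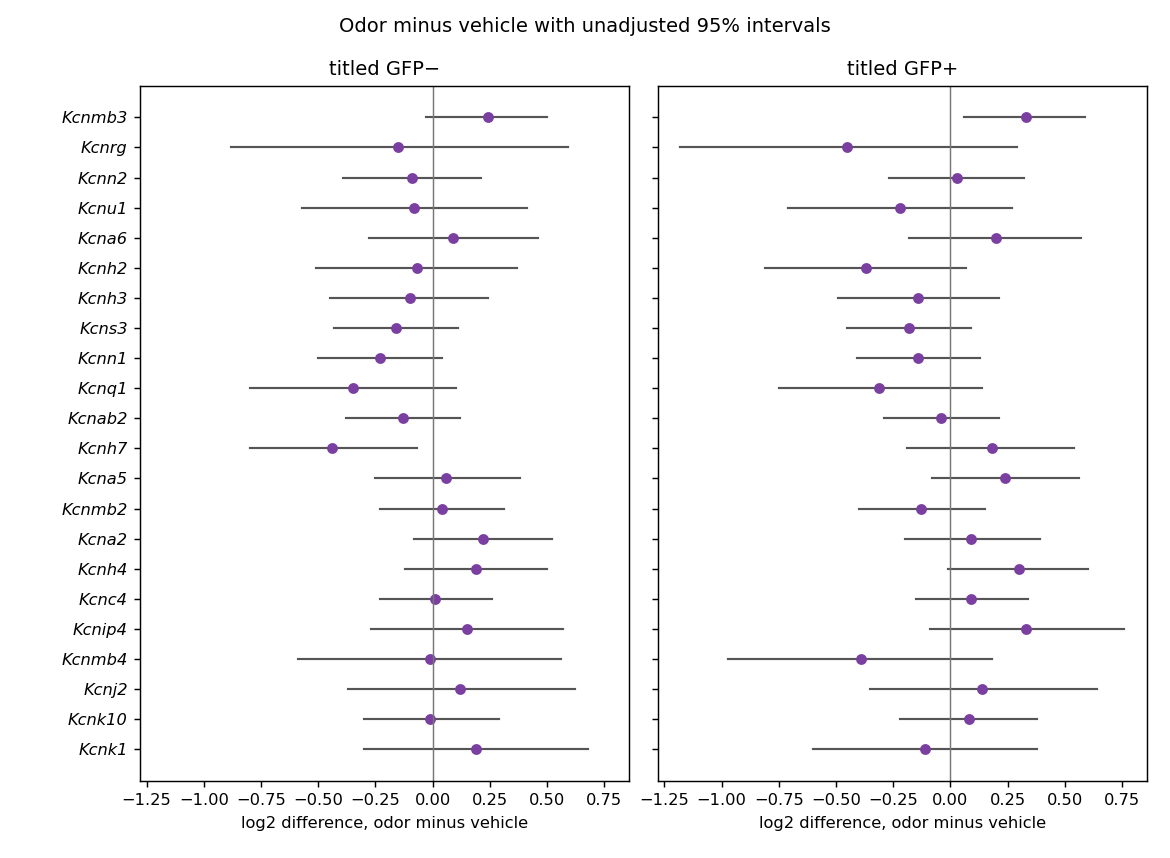
Odor minus vehicle in log2 signal (horizontal axes) for the 22 members above background, in the fraction titled GFP− and the one titled GFP+, with points at the limma estimate and lines for unadjusted 95% intervals. Most intervals include 0; Kcnh7 in the fraction titled GFP− and Kcnmb3 in the one titled GFP+ are the members whose interval does not, and neither passed after adjustment.

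Other genes of excitability were read from the same fit. Of 57 measured genes outside the Kcn symbols (partners of potassium channels, sodium pump, cotransporters, HCN, sodium, calcium and transduction channels), 28 were above background in a group, 7 were called higher and 1 lower in vehicle pools, and 6 and 1 in odor pools. In either direction 14% and 12.3% were called, against the background of 16.9% and 22.2%, and their median difference was 0.19 and 0.23. Scn4b, a sodium channel β subunit that aids resurgent current, differed by 0.79 ± 0.12 and 0.74 ± 0.12 (adjusted p = 1.3e-04 and 2.8e-04). Dlg2, a scaffold that clusters Kv1 channels, differed by 0.69 ± 0.13 and 0.56 ± 0.13 (adjusted p = 0.0014 and 0.0067). Hcn2, a pacemaker channel, and Ano2, the calcium-activated chloride channel of OSN cilia, were called higher in both, by 0.40 and 0.49 and by 0.39 and 0.41. Atp1b3, a sodium pump β subunit, was called lower in both, at −0.59 ± 0.15 and −0.65 ± 0.15 (adjusted p = 0.0121 and 0.0059).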

How the data were processed

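The values were deposited by the authors as log2 signals of 16 Clariom S arrays, made with Affymetrix Expression Console per the submitters' processing notes; of its version, background correction and normalization nothing is known here (not given in the sources used here), and the log2 unit was read from their range (1.77 to 19.3). Of 28846 table entries, the 19572 with 1 gene symbol were tested, and names were checked by Entrez identifier against RefSeq (GRCm38.p6), which changed 0 symbols. limma 3.58.1 in R 4.3.3 fitted 1 mean per group to the values as deposited, with two-sided moderated tests and Benjamini-Hochberg adjustment over all 19572 features at 0.05; the fit was tested on simulated data. SE come from the model and SD from 4 arrays of pooled mice, and the number of arrays limits the precision.

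The members, gene lists and tests were chosen with earlier results of these data known. Members above background on all 4 arrays of a group were named; of those past the threshold in a fraction comparison, up to 14 per direction were given array by array, with the 3 smallest p-values where an odor comparison called none. At-least-fold bounds set a group below background on all arrays against, on each of its arrays, the higher of the background level and the gene's own value. Each pool gave both of its fractions (24 mice, 3 per pool, 8 pools), so replicate numbers pair arrays of the same mice; deviations of the paired arrays correlated at 0.096 to 0.337, and the block correlation was 0.172. Alternatives were the replicate block, 2 centrings, quantile normalization, only features above background, a trend with robust eBayes, and leaving out each pool.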

Additional observations from a re-analysis of the deposited data

Results flagged for a closer look

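Over the 22 members above background and S100a5, 92 groups of 4 arrays were examined for an array far from the other three; chance gives about 1 in 20, and 3 were found. Kcnip4 was at 13.12 in the odor fraction titled GFP+ of replicate 1, where the other arrays of the group were at 13.72 to 13.78. Kcnmb4 was at 6.99 on the same array, under its background, with the others at 8.22 to 8.43. S100a5 was at 17.08 in the odor fraction titled GFP− of replicate 1, with the others at 16.46 to 16.56. All 3 came from odor pool 1. Neither Kcnip4 nor Kcnmb4 was called with that pool left out.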

How the results depend on the processing

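Kcnmb3 was called in both fraction comparisons under every alternative run, at 1.30 to 1.35 and 1.17 to 1.36 with 1 pool left out and at 1.07 to 1.74 and 0.78 to 1.55 under the other settings. Kcnk1 in odor pools was called throughout too, at −0.99 to −0.82 and at −1.39 to −0.62. Counts of members called higher in vehicle pools (12) went to 58 when centred on the tested median, 2 when centred on the receptor median and 19 with quantile normalization, and ran from 5 to 14 with 1 pool left out; 63.6%, 1.75% and 13.5% of all features were called so in the first 3, against 7.05%. In odor pools (13) they were 49, 1 and, with 1 pool left out, 6 to 13, with 49.3% and 1.74% of features in the first 2, against 12.2%. Members called lower (7 in each) were 1 in each when only features above background were tested, which left 22 members, and 4 to 7 and 3 to 7 with 1 pool left out. Under tested-median centring, calls began among members above background for Kcna2, Kcna5, Kcnc4, Kcnh4, Kcnmb2, Kcnq1 and Kcnu1 in both comparisons, for Kcnh2, Kcnh3, Kcnip4 and Kcnrg in vehicle pools and for Kcna6 in odor pools. With the pairing of fractions as a replicate block, 14 and 7 were called in vehicle and 13 and 7 in odor pools; calls ended for Kcns3 in vehicle (adjusted p = 0.0551) and Kcnab2 in odor pools (adjusted p = 0.0545), and began for Kcnh3 and Kcna5 in vehicle and Kcna6 in odor pools. The interaction and both odor comparisons gave 0 members called under all alternatives.

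Signs turned mainly with centring on the receptor median, for which the cause was not tested. In vehicle pools this gave Kcna2 −0.10, Kcnc4 −0.10, Kcnh4 −0.06, Kcnip4 −0.07, Kcnj2 −0.20 and Kcnmb2 −0.06. In odor pools it gave Kcna2 −0.18, Kcna5 −0.27, Kcnab2 −0.12, Kcnc4 −0.38, Kcnh4 −0.37, Kcnh7 −0.42, Kcnip4 −0.45, Kcnj2 −0.42, Kcnmb2 −0.10, Kcnmb4 −0.19, Kcnn1 −0.08, Kcnq1 −0.08 and Kcns3 −0.02. Centring on the tested median turned Kcnk10 to 0.31 in vehicle and 0.12 in odor pools and Kcnmb4 to 0.30 in vehicle pools. Quantile normalization gave Kcnmb4 0.07 in vehicle and Kcnip4 −0.05 and Kcnj2 −0.03 in odor pools. With 1 pool left out, odor differences ran from −0.06 (without odor replicate 4) to 0.18 for Kcnh7, from −0.04 (odor replicate 3) to 0.08 for Kcnip4 and from −0.08 (odor replicate 4; −0.0029 for odor replicate 2) to 0.18 for Kcnj2. Vehicle differences ran from −0.10 (vehicle replicate 1) to 0.15 for Kcnj2 and from −0.24 to 0.0036 (vehicle replicate 3) for Kcnmb4. The count of members above background was 17 against the 95th percentile of the negative controls and 33 against their median. Signal near background limits Kcnh7, Kcnu1, Kcnmb4, Kcnrg and Kcnk1.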
